A study of Sus scrofa with 12 samples.

Results

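The Krüppel-like factors (KLF) are transcription factors that bind GC-rich and CACCC-type DNA elements through zinc fingers at the end of the protein, while the remaining, more variable part recruits activating or repressing cofactors. Several are induced quickly by hormones, growth factors or mechanical stimuli, and in muscle and fat tissue members of the family are known to act in glucocorticoid response, amino acid use, lipid use and adipocyte differentiation. The 10 members described here, KLF2, KLF3, KLF4, KLF5, KLF6, KLF9, KLF10, KLF11, KLF13 and KLF15, were taken by symbol from the 25880 Ensembl genes of the count matrix. Each symbol had 1 Ensembl gene, and all 10 passed the low count filter that left 14262 genes for testing.

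The counts came from stranded mRNA libraries of Semimembranosus muscle, a ham muscle, from 12 Italian Large White pigs kept in 1 environment on 1 diet. Sampling was at slaughter, which took place on several days. The labels placed pigs 1 to 6 in a high intramuscular fat (IMF) group and pigs 7 to 12 in a low IMF group, each with 3 gilts and 3 barrows, aged 229 to 249 days, with no treatment and no genetic modification. Each library was 1 animal, and the study's methods describe the pigs as unrelated. Total counts per pig ran from 131048805 to 178013997, and the gene with the most counts took 9.71% to 16.7% of a library. The labelled tissue could be checked on 5 skeletal muscle marker genes, whose summed level was 32190 to 61780 CPM (counts per library total on the usual CPM scale, after TMM scaling), against at most 4.77 CPM for the epithelial markers tested. The counts of 2 Y chromosome genes, EIF1AY and KDM5D, went against the labelled sex in 6 of the 12 pigs, 2 of high and 4 of low IMF, with at most 6 counts in pigs read as lacking them and at least 3734 in the others. Whether labels or columns had been exchanged was not tested. Agreement in sex does not check the IMF label of a pig. The IMF results of the 10 members are therefore given also for the 6 pigs in which counts and labelled sex went together. These were 4 of high and 2 of low IMF. Gene lists are given for all 12 pigs only.

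The zinc finger region was the part the 10 genes had in common. Read from the RefSeq coding sequences on Sscrofa11.1, every member held 3 zinc fingers of the C2H2 kind spanning 81 residues, and over the 45 pairs of members 60.5% to 95.1% of these residues were the same, with a median of 67.9%. KLF2 and KLF4 were the closest pair, with 77 of 81 residues the same, and KLF10 and KLF11 followed among the members, with 71 of 81. Both of the latter are known as TGF-beta inducible early genes. The last finger is shown for KLF9 and KLF13, related members that differed widely in level, for KLF11, the member lowest per length, and for KLF15 and KLF2, the members with the smallest p-values between IMF groups. The sequences lie within coding exons at chr1:223723673-223723735 on the minus strand (KLF9), chr1:143499256-143499318 on the minus strand (KLF13), chr3:126421422-126421484 on the minus strand (KLF11), chr7:53878839-53878901 on the minus strand (KLF15) and chr2:61271192-61271254 on the minus strand (KLF2). Capitals mark the codons of the 2 cysteines and 2 histidines that hold the zinc ion:
KLF9: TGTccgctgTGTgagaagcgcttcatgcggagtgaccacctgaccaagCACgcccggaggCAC
KLF13: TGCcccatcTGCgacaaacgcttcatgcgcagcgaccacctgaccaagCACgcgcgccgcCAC
KLF11: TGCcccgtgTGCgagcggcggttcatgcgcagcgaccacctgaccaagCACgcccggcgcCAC
KLF15: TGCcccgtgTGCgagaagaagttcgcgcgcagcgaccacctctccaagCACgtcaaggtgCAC
KLF2: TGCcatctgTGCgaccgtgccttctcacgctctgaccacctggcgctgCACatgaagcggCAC

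Despite this likeness of the fingers, the longest stretch of identical coding bases between any 2 members was 32 bases, in KLF11 and KLF13, which is shorter than the 100-base reads. Outside the fingers the members differed in size, from 243 residues in KLF9 to 519 in KLF4. Near the gene starts, the 7 members whose RefSeq model held noncoding exon sequence were searched in a window of 250 bases before to 50 bases after the start, on both strands. All 7 held GGGCGG, the box bound by SP and KLF factors, and 4 of 7 held CACCC. Over all protein-coding genes, with coding-only models included, 48.9% of 20664 windows of the same size held GGGCGG and 58.2% held CACCC. The 7 member windows were 66.3% to 81.0% G and C, and the 20664 windows were not matched for this. The E-box CACGTG, bound by clock and other basic helix-loop-helix proteins, was in the windows of KLF4, KLF6, KLF11 and KLF15 and in 7.64% of all windows. The cyclic AMP element TGACGTCA was in none of the 7 windows and in 2.16% of all, and the CArG box, the serum response element, was in none of the 7 and in 1.48% of all.

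KLF9 and KLF10 dominated the family in this muscle. KLF9 is a factor known to be induced by glucocorticoid and thyroid hormone, and KLF10 is known as an early target of TGF-beta. Together they held 63.8% ± 6.85 of the counts of the 10 members (SD, n = 12 pigs), from 54.1% in pig 2 to 78.2% in pig 3. KLF9 alone held 33.2% ± 5.98 and KLF10 30.7% ± 8.59, and KLF9 had the most counts of any member in 7 pigs and KLF10 in the other 5. By mean CPM over the pigs the pair ranked 919 and 967 among the 14262 genes tested. KLF15 held 7.66% ± 2.82 of the members' counts, KLF4 7.08% ± 2.08, KLF3 6.58% ± 1.47, KLF5 5.54% ± 5.37 and KLF6 3.73% ± 1.54, and the remaining 3 members at most 2.11% each on average. No member was near the limit of detection, since the lowest count of any member in any pig was 306.

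**Figure D1:**
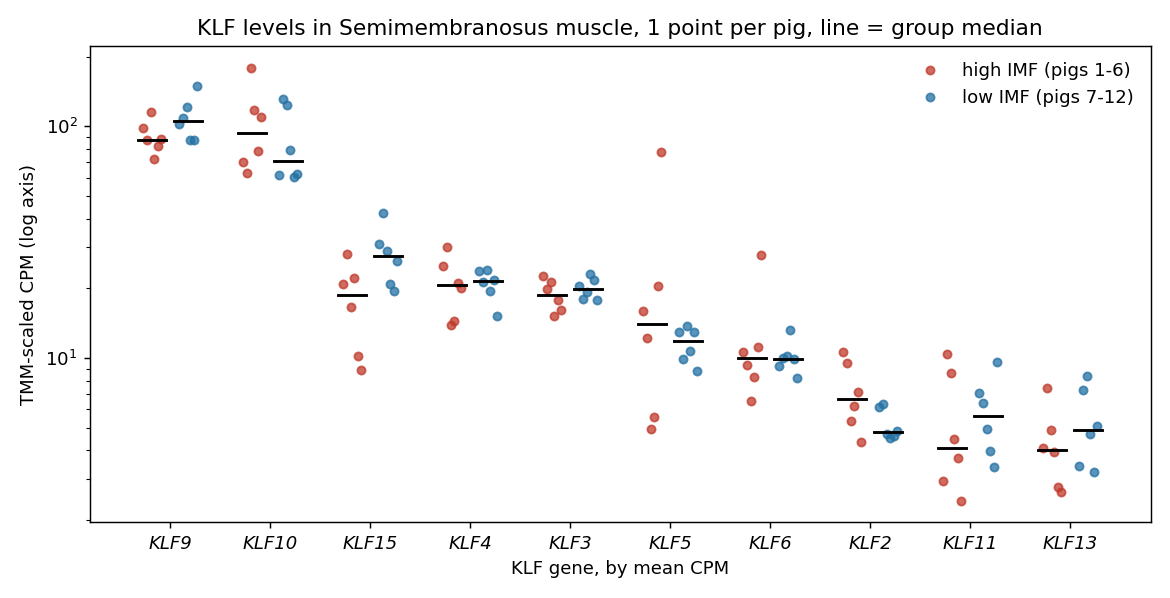
Level of each KLF gene in each pig as TMM-scaled CPM on a log axis, with high IMF pigs in red, low IMF pigs in blue and the median of each group as a black line. KLF9 and KLF10 lie above 60 CPM in all 12 pigs, while KLF5 and KLF6 each have 1 high IMF pig, pig 6, far above the others.

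Counts grow with transcript length, so the order of the members was taken from CPM per kilobase of exon. Exon length counted the exons of all RefSeq transcripts of a gene together. KLF9 led with a geometric mean of 134 CPM per kilobase over the 12 pigs (range 98.9 to 204), followed by KLF10 with 30.9 (21.0 to 62.3). KLF9 was above KLF10 in all 12 pigs, by 2.12 ± 0.58 on the log2 scale (SD, n = 12), and KLF10 was above KLF5 in 11 of 12 (exact sign-flip permutation test, two-sided, adjusted over 9 neighbouring pairs, p = 0.0044 for each). The exon lengths used, 732 bases for KLF9 and 2877 for KLF10, were the same in every pig, so this difference includes a fixed length term. With no length KLF9 was the higher in 7 of 12 pigs, by 0.14 ± 0.58 on the log2 scale. Behind KLF9 and KLF10 came KLF5 with 9.29, KLF4 with 6.65, KLF13 with 5.13, KLF15 with 4.13, KLF2 with 3.67, KLF3 with 2.96 and KLF6 with 2.63 CPM per kilobase. The 6 neighbouring pairs among these 7 genes did not differ beyond their spread (adjusted exact permutation p = 0.0520 to 0.420). KLF11 was last with 1.30 CPM per kilobase, below KLF6 in 9 of 12 pigs (adjusted exact permutation p = 0.022).

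The place of the middle members and the lead of KLF9 over KLF10 depended on the length used. The RefSeq models of KLF5, KLF9 and KLF13 hold coding exons only, which raises their level per kilobase of exon beside members with long noncoding exons. The scaling by coding sequence that follows uses the same length for these genes. Per kilobase of coding sequence KLF9 (134) and KLF10 (61.6) again led, KLF9 above KLF10 in 12 of 12 pigs (adjusted exact permutation p = 0.0022), but KLF3 (18.5) and KLF15 (15.6) then came next, with KLF4 at 13.1, KLF6 at 12.3, KLF5 at 9.29, KLF2 at 5.54, KLF13 at 5.13 and KLF11 at 3.44. On CPM with no length KLF9 and KLF10 did not differ beyond their spread (0.14 ± 0.58 on the log2 scale, adjusted exact permutation p = 0.470). On the mean levels, KLF9 stays above KLF10 per kilobase of exon as long as its transcript is shorter than 3176 bases, against 732 bases in the model used. 2 pairs of related members stood far apart, as KLF13 was at 5.13 against 134 CPM per kilobase for KLF9, and KLF11 at 3.44 against 61.6 CPM per kilobase of coding sequence for KLF10. KLF2 and KLF4, the pair with the most similar fingers, lay closer, at 3.67 and 6.65 CPM per kilobase of exon and at 5.54 and 13.1 CPM per kilobase of coding sequence.

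**Figure D2:**
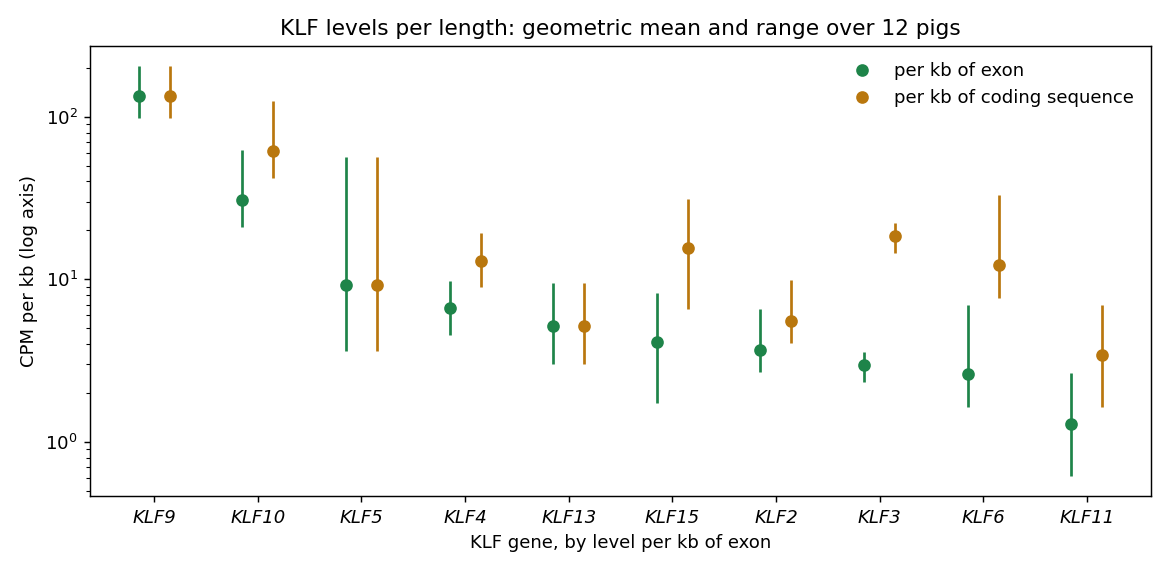
Level of the KLF genes per kilobase of exon (green) and per kilobase of coding sequence (orange) on a log axis, with points for the geometric mean and lines for the range over 12 pigs. KLF9 and KLF10 lead on both, and KLF3, KLF15 and KLF6 move up when noncoding exons are left out.

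The members differed widely in how much they varied between pigs of the same group. KLF3, a repressor known to act with the CtBP cofactors, was the steadiest, from 15.2 to 23.1 CPM over all pigs (1.53-fold), with an SD within groups of 0.20 on the log2 scale, at percentile 20.2 of all genes tested. KLF9 was the next steadiest (SD 0.26, percentile 38.0), so that of the 2 leading members one was steady and the other was not, KLF10 having an SD of 0.54 at percentile 75.5. KLF5 varied most (SD 1.04, percentile 92.9), followed by KLF11 (SD 0.71, percentile 85.3), and KLF13, KLF15 and KLF6 lay between 0.53 and 0.55. In 8 of the 10 members the SD was above the median over all genes, 0.32. KLF10 ranged 2.96-fold, from 60.5 CPM in pig 11 to 179 CPM in pig 3, KLF11 4.28-fold, from 2.43 CPM in pig 6 to 10.4 CPM in pig 2, and KLF13 3.17-fold, from 2.63 CPM in pig 6 to 8.34 CPM in pig 9.

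**Figure D3:**
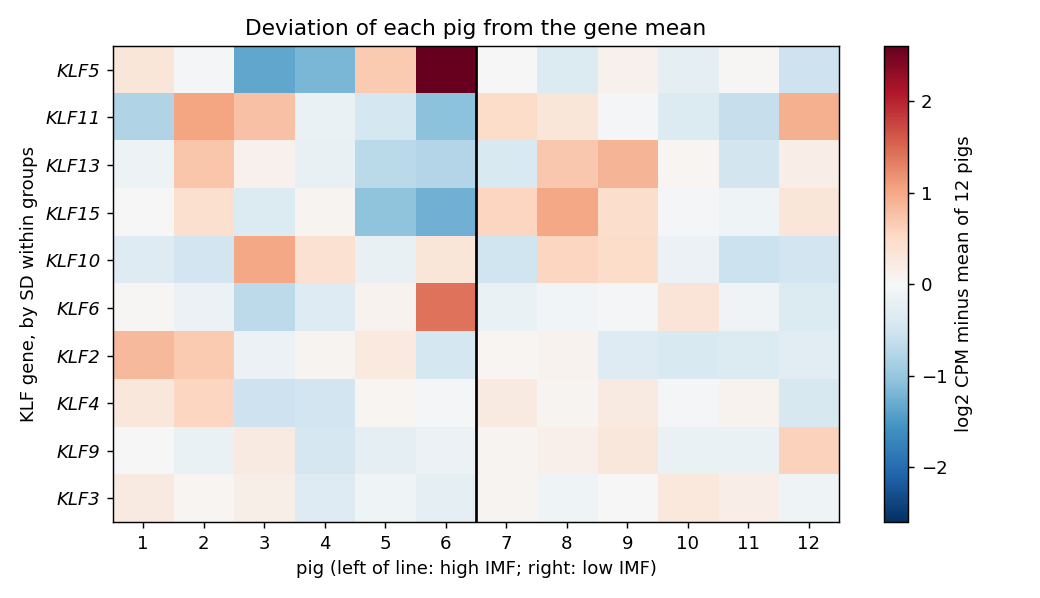
Deviation of each pig from the gene's mean, as log2 CPM, for the 10 KLF genes ordered by their SD within groups, with high IMF pigs left of the line and low IMF pigs right of it. KLF5 and KLF6 are highest in pig 6, where KLF2, KLF11, KLF13 and KLF15 are lowest, and KLF3 and KLF9 show little colour.

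KLF5, a factor known in adipocyte differentiation and smooth muscle, owed much of its spread to pig 6. In high IMF pigs 1 to 6 it was at 15.9, 12.3, 4.96, 5.58, 20.4 and 77.4 CPM. In low IMF pigs 7 to 12 it was at 12.9, 9.90, 13.8, 10.7, 13.0 and 8.79 CPM. Pig 6 was 3.79-fold above the next pig, and the high IMF pigs lay on both sides of the low IMF pigs, with 3 above all of them and 2 below all of them. Within groups the SD was 1.44 on the log2 scale in high IMF and 0.26 in low IMF, and without pig 6 the high IMF value was 0.91. KLF6, known as a tumour suppressor and a gene induced by tissue injury, was likewise highest in pig 6, at 27.9 CPM, where the other 11 pigs lay between 6.50 and 13.2 CPM. KLF15, KLF13, KLF11 and KLF2 had their lowest levels in the same pig, at 8.88, 2.63, 2.43 and 4.34 CPM.

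Pig 6 also stood apart in other genes. It had the highest summed level of the macrophage markers (197 CPM, against a median of 103 and a highest value of 165 in the other pigs) and the highest value of 6 of the 9 tested, and the highest summed level of the immediate early genes (2287 CPM against a median of 1349 CPM in the other pigs), leading in 10 of 16. The adipocyte markers summed to 123 CPM in pig 6, against a median of 53.4 and a highest value of 131 CPM in the other pigs. Pig 6 led in 3 of 6 of them, in 5 of 15 adipogenesis genes and in 3 of 8 fibroblast markers. It led in 1 of 7 endothelial and 0 of 8 smooth muscle and pericyte markers. Over all 14262 genes tested, pig 6 was the highest pig in 15.3%. Its summed skeletal muscle markers were the lowest of the 12 pigs, at 32190 CPM. The part of these differences in the KLF5 and KLF6 levels was not tested, and in whole muscle a change in the share of a cell type cannot be told apart from a change of RNA within cells.

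Across the 12 pigs, 45 pairs of members were compared on log2 CPM. KLF5 and KLF6 rose and fell together (Pearson r = 0.92, permutation p = 0.00058, Benjamini-Hochberg adjusted p = 0.0261, 100000 resamples; Spearman rho = 0.78, permutation p = 0.00426, adjusted p = 0.186), and no other pair passed. The relation rested on the extreme pigs. Without pigs 3 and 6, the farthest from the KLF5 median, r was 0.55, and the adjusted permutation p was 0.235 without pig 6 (r = 0.74) and 0.109 without pig 3 (r = 0.90). Within groups r was 0.97 in the high IMF pigs and 0.21 in the low IMF pigs.

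The next pairs did not pass the adjusted threshold. KLF6 and KLF11 ran in opposite directions (r = -0.69, adjusted permutation p = 0.0731; rho = -0.74, adjusted p = 0.186), with r = -0.71 within the high and within the low IMF group, and reached an adjusted permutation p of 0.0342 without pig 4. KLF13 and KLF15 ran in the same direction (r = 0.75, adjusted permutation p = 0.0749; rho = 0.66, adjusted p = 0.190), with r = 0.88 in high and 0.57 in low IMF pigs and r between 0.67 and 0.86 when any 1 pig was left out. Without pig 7 this pair reached an adjusted permutation p of 0.0166. KLF9 and KLF10, the 2 most abundant members, were not among the 6 pairs with an unadjusted permutation p at or under 0.05.

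**Figure D4:**
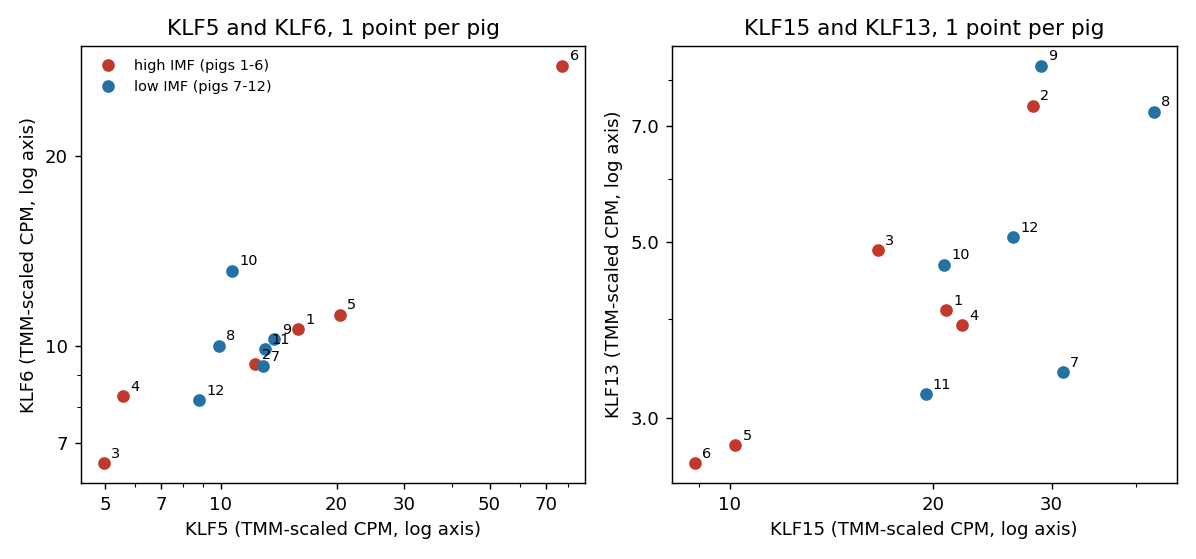
KLF6 against KLF5 (left) and KLF13 against KLF15 (right), as TMM-scaled CPM on log axes, with 1 numbered point per pig, high IMF in red and low IMF in blue. On the left pig 6 lies alone at 77.4 and 27.9 CPM and pig 3 at the lower end, while on the right the pigs spread along the whole range, from pig 6 at 8.88 CPM of KLF15 to pig 8 at 42.5 CPM.

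A search over 9621 genes with symbols for those whose log2 CPM followed each member most closely over the 12 pigs gave different genes for most members, with 1 shared. KLF15 ran closest to SEMA4D (r = 0.95), ZFYVE1 (r = 0.95) and CASTOR2 (r = 0.94), all of which stayed at or above 0.92 when any 1 pig was left out. KLF13 ran closest to the clock repressor CRY2 (r = 0.92), then ZBTB40 and RNF169. KLF5 ran closest to SPRY2, ABL2 and PLEK (r = 0.93 each), and KLF6 to CHST2, TGM3 and PLEK (r = 0.95, 0.95 and 0.94), all of which dropped to 0.74 to 0.80 without pig 6. Of the abundant members, KLF9 ran closest to IGF2BP2 (r = 0.89), TP53INP2 and BPTF, and KLF10 to ATAD2B (r = 0.86), ORC5 and EDRF1. KLF4 ran closest to MICALL1 (r = 0.92), SURF4 and PPARGC1B, KLF11 to THYN1 (r = 0.89), PIGS and BST1, KLF2 to DTYMK (r = 0.86), ARVCF and HEXD, and KLF3 to CUL4A (r = 0.82), CDK2 and SEL1L. These are the extremes of a search over 9621 genes in 12 pigs and are given as a description.

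None of the 10 members was called between low and high IMF. A call required an adjusted p at or under 0.05 in edgeR's quasi-likelihood test and a log2 fold change of at least 0.58 in size, and 0% of the 14262 genes tested met it, the smallest adjusted p of any gene being 0.19. Adjusted p-values of the members ran from 0.441 to 0.990. Their log2 fold changes (low over high IMF) ran from -0.98 to 0.66 with a median of 0.05, against -0.01 over all genes, 6 being positive and 4 negative. At an unadjusted p at or under 0.05 stood 2 of the 10, KLF15 and KLF2, where 10.4% of all genes tested stood there. In 0 of the 10 were the groups free of overlap in log2 CPM, against 0.659% of all genes. DESeq2's Wald test over all genes with at least 1 count called 0 of the 10, against 0.316% of all genes, with KLF15 and KLF2 again the 2 members at an unadjusted p at or under 0.05.

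**Figure D5:**
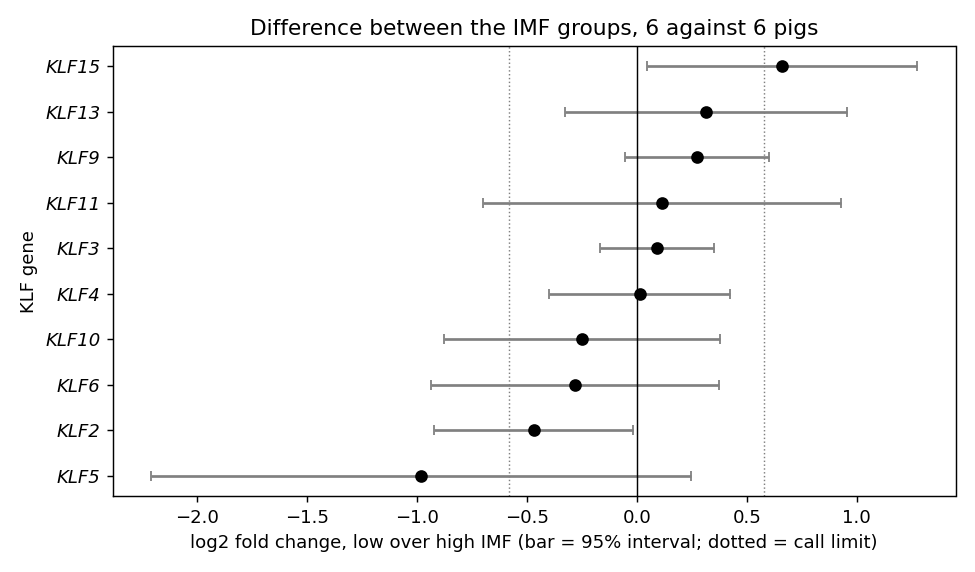
Fitted log2 fold change of each KLF gene, low over high IMF (6 against 6 pigs), with the 95% interval as a bar and the call limit of 0.58 in size as dotted lines. The intervals of KLF15 (0.05 to 1.28) and KLF2 (-0.92 to -0.02) lie on 1 side of 0, and the others cross it.

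KLF15, a glucocorticoid-induced factor known for its role in branched-chain amino acid use in muscle, had the smallest p of the family. Its level was 19.5 (lowest), 27.6 (median) and 42.5 CPM (highest) in the low IMF pigs and 8.88, 18.7 and 28.2 CPM in the high IMF pigs. All 6 low IMF pigs lay above the high IMF median and 3 above the highest high IMF pig, while 3 high IMF pigs (3, 5 and 6) lay below all low IMF pigs. The log2 fold change was 0.66 (SE 0.28, 1.58-fold; edgeR p = 0.0311, adjusted p = 0.441; exact permutation p = 0.0498, two-sided). Leaving out 1 pig at a time gave 0.52 to 0.84, with an unadjusted p at or under 0.05 in 7 of 12 fits. In the pigs whose Y chromosome counts went with the labelled sex the value was 0.20 (edgeR adjusted p = 0.998).

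KLF2, which together with KLF4 maintains the quiescent state of endothelium under flow, lay in the other direction. Its level was 4.34, 6.67 and 10.6 CPM (lowest, median, highest) in high IMF pigs and 4.53, 4.79 and 6.32 CPM in low IMF pigs. All 6 low IMF pigs were below the high IMF median, and 3 high IMF pigs were above all low IMF pigs, led by pigs 1 and 2 at 10.6 and 9.55 CPM. The log2 fold change was -0.47 (SE 0.20; edgeR p = 0.0371, adjusted p = 0.452; exact permutation p = 0.0866). It was -0.58 to -0.33 when 1 pig was left out, with an unadjusted p at or under 0.05 in 5 of 12 fits, and -0.69 (edgeR adjusted p = 0.998) in the pigs whose Y chromosome counts went with the label. KLF4 showed no such direction, with 13.9, 20.6 and 30.1 CPM in high and 15.2, 21.5 and 24.1 CPM in low IMF pigs (log2 fold change 0.01, SE 0.19). The summed endothelial markers were 108.7 to 147 CPM in high and 114 to 182 CPM in low IMF pigs, and 1 of the 7 tested, CDH5, had an unadjusted p at or under 0.05, being higher in low IMF pigs, the opposite direction to KLF2.

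KLF9 was at 72.4, 87.6 and 115 CPM (lowest, median, highest) in high IMF pigs and 87.4, 105 and 149 CPM in low IMF pigs. Its log2 fold change was 0.27 (SE 0.15, 95% interval -0.05 to 0.60), an interval that reached just past the call limit on the low IMF side, and was 0.17 without pig 12, the highest. KLF10 was at 63.0, 94.0 and 179 CPM in high and 60.5, 71.0 and 131 CPM in low IMF pigs, a log2 fold change of -0.25 (95% interval -0.88 to 0.38) that was -0.02 without pig 3, the pig with the highest level. The KLF10 value was -0.54 in the pigs whose Y chromosome counts went with the label. KLF3, with an interval of -0.17 to 0.35 around 0.09, and KLF4, with -0.40 to 0.43 around 0.01, were the 2 members whose interval stayed inside the call limit in both directions, and of the 10 intervals that of KLF3 was the narrowest. The KLF5 log2 fold change of -0.98 (SE 0.55) was the largest in size in edgeR but was -0.04 without pig 6. It was -1.19 without pig 3 or pig 4, and -0.32 under limma-voom with all pigs. The exact permutation test compared mean log2 CPM, 3.51 in low and 3.84 in high IMF pigs for KLF5, and gave p = 0.658. KLF6 went from -0.28 (SE 0.29) to 0.14 without pig 6. KLF13 (0.31, SE 0.29) and KLF11 (0.11, SE 0.37) had intervals of -0.33 to 0.96 and -0.70 to 0.93, so that neither a difference past the call limit nor its absence could be shown at this spread. Leaving out 1 pig moved KLF13 between 0.14 (without pig 9) and 0.54 (without pig 2).

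Of the other KLF genes, KLF7, KLF8, KLF12 and KLF16 passed the filter, KLF1 and KLF17 had no count and KLF14 stayed below the filter. KLF12 (3.69 to 13.5 CPM), KLF7 (6.12 to 9.44 CPM), KLF16 (3.53 to 5.75 CPM) and KLF8 (0.68 to 2.33 CPM) had an unadjusted p above 0.05, as did all 4 tested members of the related SP family. Among 12 cofactors and degradation factors of KLF proteins, the acetyltransferase CREBBP was higher in low IMF (log2 fold change 0.63, SE 0.20, adjusted p = 0.420 in edgeR) and the deacetylase HDAC2 higher in high IMF pigs (-0.27, SE 0.10, adjusted p = 0.441), both at an unadjusted p at or under 0.05 and neither past the adjusted threshold.

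The pathways that the members are known to serve gave no adjusted call in edgeR either. For comparison with the lists below, of all 14262 genes tested 767 were higher in low and 719 higher in high IMF at an unadjusted p at or under 0.05 in edgeR. Groups were without overlap in 0.659% of these genes. Of 14 glucocorticoid response genes, the setting of KLF9 and KLF15, 6 were higher in low and 2 higher in high IMF pigs at an unadjusted p at or under 0.05, with a median log2 fold change of 0.46 against -0.01 over all genes. FOXO1 (0.73, SE 0.26) and CRISPLD2 (0.60, SE 0.22) were among the former, and DUSP1 (-0.83, SE 0.28) and SGK1 (-1.02, SE 0.37) were the latter. The 15 genes of branched-chain amino acid and proline catabolism, known targets of KLF15 among them, had 2 higher in low IMF, GPT2 and BCKDK, and a median of -0.06. GPT2, an alanine aminotransferase, was at 0.17 to 0.63 CPM in low and 0.089 to 0.15 CPM in high IMF pigs without overlap (log2 fold change 1.37, SE 0.34, edgeR adjusted p = 0.316, DESeq2 adjusted p = 0.0293), a low level throughout. Of 17 clock genes, 2 were higher in high IMF, CRY1 (-0.33, SE 0.12) and NFIL3 (-1.06, SE 0.40), and none higher in low IMF at that p.

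In the TGF-beta response, the setting of KLF10 and KLF11, 1 of 15 genes was higher in low (SMAD3, 0.44, SE 0.19) and 1 higher in high IMF (CCN2, -0.64, SE 0.22), at an unadjusted p at or under 0.05, with a median of -0.02. Of 16 immediate early genes, 2 were higher in low (FOSL2, 0.56, SE 0.14, and NR4A3, 1.12, SE 0.37) and 6 higher in high IMF, EGR2 (-1.02, SE 0.33) and IER2 (-0.92, SE 0.30) among them, with a median of -0.41. Of 15 adipogenesis genes, the setting of KLF5 and KLF3, CEBPB was higher in low IMF without overlap, at 58.8 to 118 CPM against 35.1 to 51.2 CPM (log2 fold change 0.83, SE 0.18, edgeR adjusted p = 0.229, DESeq2 adjusted p = 0.00695), CEBPA was higher in high IMF at levels under 0.6 CPM, and the median was 0.12. The 8 genes of the endothelial flow response, the setting of KLF2 and KLF4, had none at an unadjusted p at or under 0.05, MAP2K5 having the smallest (0.19, SE 0.11, edgeR adjusted p = 0.583).

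Markers of other cell types were compared between groups in the same way. The macrophage markers had 2 of 9 higher in high IMF (ITGAM, -1.06, SE 0.35, and AIF1, -0.46, SE 0.20), with sums of 84.9 to 197 CPM in high and 94.3 to 165 CPM in low IMF pigs. The 6 adipocyte markers had none at that p, PPARG having the smallest (-0.31, SE 0.30), with sums of 44.4 to 123 CPM in high and 21.2 to 131 CPM in low IMF pigs. Of 8 fibroblast markers PDGFRA was higher in high IMF (-0.42, SE 0.17), and of the 8 smooth muscle and pericyte, the 2 epithelial and the 5 skeletal muscle markers tested none stood at that p, with NOTCH3 (0.47, SE 0.26), KRT8 (0.73, SE 0.77) and ACTA1 (0.29, SE 0.18) the smallest. The part of these cell types in the KLF values was not tested.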

How the data were processed

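The deposited matrix holds raw read counts per Ensembl gene, which the authors made from paired-end reads by FastQC, Trimmomatic, HISAT2 alignment to Sus scrofa 11.1, StringTie and HTSeq; the annotation release and strand setting are not given in the sources used here. In the matrix a count of 3 was more frequent (4925 values) than a count of 4 (2262), so low counts may not be single reads; no member was that low. Genes were filtered with filterByExpr and TMM-scaled, and the groups were compared with edgeR 4.0.16 (quasi-likelihood test, group as the only term, Benjamini-Hochberg adjustment); DESeq2 1.42.0 and limma 3.58.1 served as alternatives. Log2 CPM used a prior count of 2. Differences in mean log2 CPM of single members were tested by exact permutation over 924 arrangements, which cannot go below p = 0.00216. Scripts were tested on simulated data. P-values reflect the spread between 6 animals a group. Pairs of libraries shared a lane, and the pigs were slaughtered on several days. Neither lane nor day was analysed here.

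Gene positions, exon lengths and sequences came from RefSeq on Sscrofa11.1, matched by symbol only. From each list were named up to 4 genes with the smallest unadjusted p at or under 0.05, or else the 1 smallest. The members and lists were chosen with earlier results of these data known. JUNB and EGFL7 had no count. Some listed genes had no Ensembl gene under the symbol used and were left out. They were MT2A and TSC22D3 (glucocorticoid), ARNTL and PER3 (clock), BTG2 and JUND (immediate early), and SELE and THBD (endothelial flow). CLDN5 and VWF (endothelial), GPT and PRODH (catabolism), CTBP2, SP7, CIDEA, KRT5 and KRT14 were others, as were the muscle markers MB, MYH1, MYH2, MYH4, MYH7 and TTN. 1 gene of the TGF-beta list is not reported here. Leave-one-pig-out counts by DESeq2 and of overlap were added after seeing the data.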

Additional observations from a re-analysis of the deposited data

Results flagged for a closer look

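In the high IMF group, pig 6 lay far from the other 5 pigs in 2 members: KLF5 at 77.4 CPM, with the next pig at 20.4 CPM, and KLF6 at 27.9 CPM, with the next at 11.2 CPM. The gap to the nearest pig, divided by the range of the group, was 0.786 and 0.780 on CPM, above Dixon's 95% critical value for 6 samples. Of 20 groups screened (10 members in both IMF groups), these were the 2 flagged. Chance flags about 1 in 20 where values are normally distributed, which was not checked for CPM. The screen was not run on log2 CPM, where KLF5 was 6.27 in pig 6, 4.35 in pig 5 and 2.31 in pig 3, the lowest. The KLF5 gap is thus smaller beside the range on that scale. The cause was not tested.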

How the results depend on the processing

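Over 24 alternative settings, no member was called in any fit, and 229 of 240 member fold changes kept their direction. The members at an unadjusted p at or under 0.05 numbered 2 in the report and 1 under limma-voom, with labelled sex and with age as covariates, 0 in the pigs whose Y chromosome counts went with their label, and 0 to 3 when 1 pig was left out, with 3 without pig 3 (KLF2, KLF5 and KLF9) or pig 4 (KLF2, KLF5 and KLF15) and 0 without pig 5 (KLF15 log2 fold change 0.54, KLF2 -0.47). The genes called over the whole matrix were 0 in edgeR, 57 by DESeq2 after the edgeR filter and 64 by DESeq2 without it, and when 1 pig was left out 0 to 1 in edgeR (1 without pig 5 or pig 10) and 42 (without pig 6) to 187 (without pig 2) by DESeq2 without the filter. In the pigs whose Y chromosome counts went with the label, KLF4 turned to -0.27 and KLF13 to -0.12. The others kept their direction there, with KLF15 at 0.20, KLF9 at 0.46, KLF11 at 0.37 and KLF3 at 0.11. On the other side were KLF2 at -0.69, KLF5 at -1.34, KLF6 at -0.63 and KLF10 at -0.54. The edgeR adjusted p was 0.998 for each. Leaving out 1 pig moved KLF4 between -0.080 and 0.15, KLF6 between -0.41 and 0.14 and KLF11 between -0.072 and 0.40. Of the 10 places in the order per kilobase of exon, 3 were the same per kilobase of coding sequence and 3 with no length. The related pairs past the adjusted threshold were 0 (without pig 3 or pig 6) to 2. With 6 pigs a group, the 95% intervals of 8 members reached past the call limit, so changes of that size were not excluded for them. No paired analysis was possible because the pigs share no numbers across groups.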
